A study of Mus musculus with 12 samples.

Results

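The round spermatid and the preleptotene spermatocyte stand at opposite ends of meiosis in the male germ line, and here the 2 libraries of mouse round spermatids (rST) were set against the 2 libraries of preleptotene spermatocytes (plpSC), 4 of the 12 libraries of the series. All genes with a level of at least 1 FPKM (fragments scaled to transcript length and library size, a level per length) in at least 2 of these 4 libraries were compared, which kept 12407 of the 22552 gene symbols in the files. The rST came from males of 60 days postpartum and the plpSC from males of 17 days postpartum, so stage and age cannot be told apart. Both groups were F1 animals of DBA/2 and C57BL6, their cells were separated from the testis by size with the STAPUT sedimentation method, and the labels name no drug or transgene in either group. The labels state neither a purity nor the number of animals behind a library, and they do not say that replicates came from separate animals, so p-values measure only the spread between these libraries.

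A preleptotene spermatocyte is the last premeiotic germ cell: under retinoic acid it induces Stra8, copies its DNA a final time and starts to load the axial proteins and the double-strand break machinery of meiosis. After both meiotic divisions the round spermatid is haploid, transcribes a large programme of sperm genes and stores many of the messages for later translation. It builds the acrosome from Golgi vesicles, lays down the axoneme of the tail, and prepares to replace its histones with transition proteins and then protamines.

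The 4 libraries were of similar depth, between 23520448 and 34923958 effective fragments as recovered from the deposited confidence bounds. The rST libraries were alike (Pearson r of log2(FPKM + 1) over the 12407 genes 0.993), and the plpSC libraries less so (r = 0.925). The plpSC libraries lay at least 2-fold apart on the log2(FPKM + 1) scale at 2105 of 12407 genes (17%), the rST libraries at 44 (0.355%). Of the summed FPKM, 3 abundant small RNAs (Rpph1, Rmrp, Rprl3) made up 2.14% and 1.82% in the rST libraries, against 7.64% and 19.11% in plpSC replicates 1 and 2, and a rescaling without them was tried as an alternative.

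The labels were checked against defining markers. Prm1, the main sperm protamine (chromosome 16, 10796425 to 10796916 in mm9), had 16020 and 19267 FPKM in rST replicates 1 and 2, against 72.3 and 60.4 FPKM in plpSC replicates 1 and 2. Stra8, the retinoic acid target that licenses meiotic entry (chromosome 6, 34870960 to 34889342), had 9.08 and 7.87 FPKM in rST, against 43.9 and 100.4 FPKM in plpSC. Mcm2, a subunit of the replicative helicase (chromosome 6, 88833468 to 88848774), had 4.41 and 3.28 FPKM in rST, against 15.9 and 27.6 FPKM in plpSC. Each of these markers was higher in the stage it stands for in every library, and Stra8 and Mcm2 were higher in plpSC replicate 2 than in replicate 1. Dmrtb1, another preleptotene marker, overlapped, with 163 and 157 FPKM in rST, against 185 and 84.2 FPKM in plpSC. Stra8 (166 and 145 FPKM) and Mcm2 (84.6 and 75.1 FPKM) were higher still in the spermatogonial libraries of the series, so they are not particular to plpSC.

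Both plpSC libraries also held transcripts of later germ cells, replicate 1 more than replicate 2. Acrv1, an acrosomal matrix protein (chromosome 9, 36500805 to 36506422), had 237 and 261 FPKM in rST, against 139 and 41.2 FPKM in plpSC, so plpSC replicate 1 stood at 56.0% and replicate 2 at 16.6% of the rST mean. Ldhc, the testis lactate dehydrogenase that is switched on in pachytene spermatocytes, had 1985 and 1917 FPKM in rST, against 1943 and 803 FPKM in plpSC. Over the same 12407 genes plpSC replicate 1 had r = 0.927 and 0.928 with the pachytene libraries of the series and replicate 2 had 0.868 and 0.835. With the rST libraries plpSC replicate 1 had r = 0.90 and 0.88 and replicate 2 had 0.74 and 0.71. With the spermatogonial libraries plpSC replicate 1 had r = 0.50 and 0.43 and replicate 2 had 0.71 and 0.66. The part of these later transcripts in the results was not tested, and each result is given against each plpSC library.

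RNA of somatic testis cells and of blood was also higher in plpSC. The summed level of the 22 Sertoli cell markers was 79.6 and 63.7 FPKM in rST, against 382 and 540.2 FPKM in plpSC. Of these markers 15 of the 17 tested were called lower in rST (88.2%, against 27.8% of all genes). Their defining member Cst12, a cystatin of Sertoli cells, had 10.3 and 7.70 FPKM in rST, against 67.8 and 95.4 FPKM in plpSC, while Amh was listed at 0 in rST replicate 2. The 19 peritubular and stromal markers summed to 264 and 199 FPKM in rST, against 388 and 1032 FPKM in plpSC, with 10 called lower (52.6%). The 7 erythroid genes summed to 21.1 and 7.22 FPKM in rST, against 224 and 441 FPKM in plpSC, and the 5 tested were called lower. The smooth muscle actin Acta2 had 25.4 and 11.4 FPKM in rST, against 38.8 and 198 FPKM in plpSC, so the stromal excess lay mostly in plpSC replicate 2. Leydig cell markers summed to 155 and 129 FPKM in rST, against 142 and 148 FPKM in plpSC, and endothelial markers to 21.9 and 20.6 FPKM in rST, against 15.0 and 24.4 FPKM in plpSC, with 3 of 11 Leydig markers (27.3%) called lower, near the share of all genes, and 0 of 9 endothelial markers called (limma, 2 higher and 0 lower at an unadjusted p under 0.05). The Sertoli falls numbered 10, 4, 17 and 16 and the peritubular and stromal falls 6, 0, 17 and 12 without rST replicate 1, rST replicate 2, plpSC replicate 1 and plpSC replicate 2 in turn. The part of somatic and blood RNA in the genes lower in rST was not tested.

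**Figure D1:**
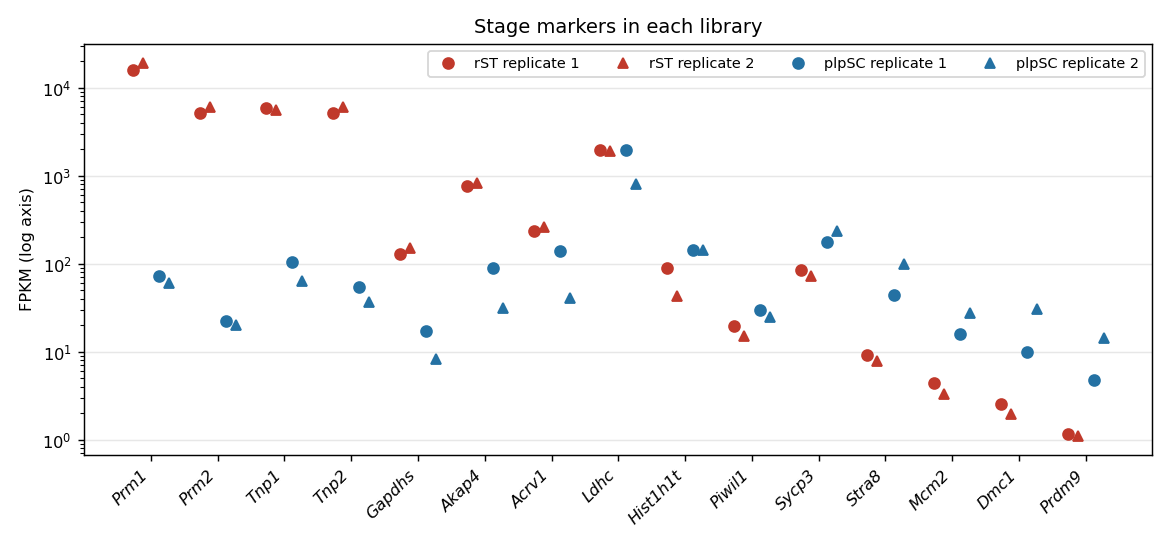
FPKM of 15 stage markers in each library on a log axis, with rST in red left of plpSC in blue, circles for replicate 1 and triangles for replicate 2. The protamine and transition protein genes stand at 5159 FPKM or more in both rST libraries and at 105 FPKM or less in both plpSC libraries, while Ldhc in plpSC replicate 1 lies within the range of rST.

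With limma on log2(FPKM + 1), 1300 of the 12407 genes (10.5%) were called higher in rST and 3454 (27.8%) lower at a Benjamini-Hochberg adjusted p under 0.05, and 38.3% in either direction. By size, 549 genes (4.42%) were called higher by at least 4-fold and 284 (2.29%) lower by at least 4-fold. Fewer genes rose than fell, but more rises than falls reached 4-fold. The order at 4-fold depended on the setting. It reversed with a pseudocount of 0.1 (762 higher, 1113 lower) and in the rescaling without the 3 small RNAs (403 higher, 686 lower). Each of the 4754 called genes had the same direction against both plpSC libraries, and without regard to the test both rST libraries lay above both plpSC libraries at 24.2% of genes and below them at 52.4%. The median log2 difference of all genes tested was -0.31, and because FPKM is a share of a library, the split moves with the scaling: quantile normalization gave 1168 higher and 683 lower, and median centring, under which the all-gene median was 0.07, gave 1800 higher and 1598 lower. In bulk samples, fewer cells of a type and less RNA per cell cannot be told apart.

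Among genes called higher in rST, the median log2 difference was 1.41 against plpSC replicate 1 and 2.32 against replicate 2, and replicate 1 was above replicate 2 at 1100 of 1300 genes (84.6%). Among genes called lower, the medians were -0.97 against replicate 1 and -1.62 against replicate 2, and replicate 1 was above replicate 2 at 42 of 3454 genes (1.22%). At most called genes plpSC replicate 1 thus lay nearer to rST. A further 2335 tested genes (18.8%) had opposite directions against the 2 plpSC libraries. Without plpSC replicate 1 there were 4116 genes higher and 5774 lower, and without plpSC replicate 2 there were 1994 and 5640. Without rST replicate 1 or 2, where the spread rests on the plpSC libraries alone, 544 or 458 genes were higher and 452 or 75 lower.

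**Figure D2:**
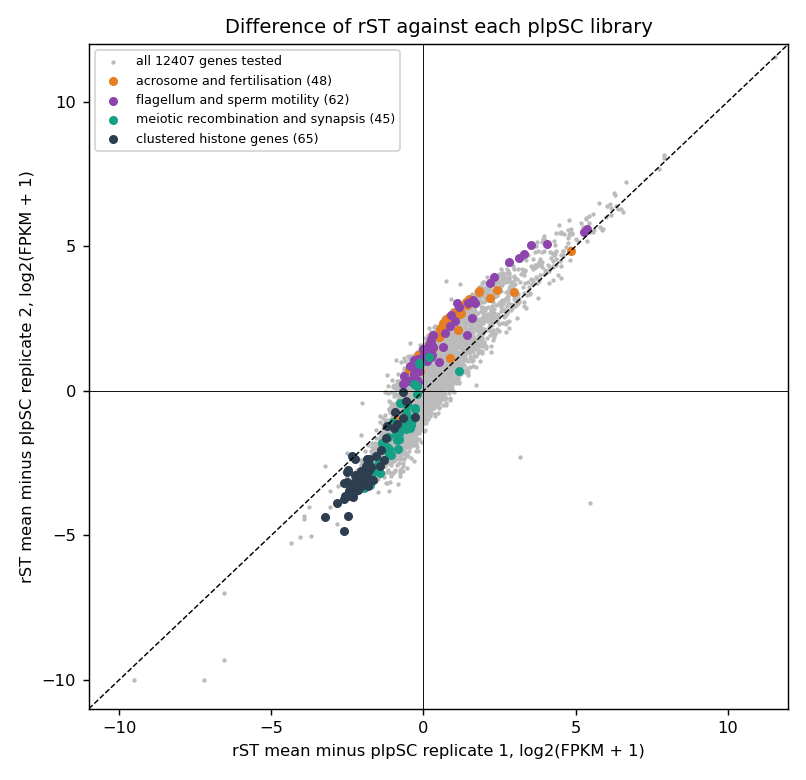
Log2(FPKM + 1) difference of the rST mean against plpSC replicate 1 (horizontal) and against plpSC replicate 2 (vertical) for the 12407 genes tested (grey) and 4 gene lists (colours), with the line of equal difference dashed. Acrosome and flagellum genes lie above the line, with list medians of 0.56 and 0.21 against replicate 1 and of 2.01 and 1.40 against replicate 2.

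Of 33 genes of nuclear condensation, 11 rose in rST (33.3%, against 10.5% of all genes) and 9 fell (27.3%, near the 27.8% of all genes), with a list median of 0.08, against -0.31 for all genes. Prm1 was higher in rST by 8.03 on the log2 scale (SE 0.725, adjusted p = 0.000609). Prm2, the other protamine and its neighbour on chromosome 16, had 5159 and 6116 FPKM in rST, against 22.6 and 19.95 FPKM in plpSC (log2 difference 7.98, adjusted p = 0.000132). The plpSC levels of Prm1 were 0.410% and 0.343% of the rST mean. They lay close to the 66.1 and 67.4 FPKM of Prm1 in replicate 1 of the pachytene and of the spermatogonial libraries, above the 8.25 FPKM of spermatogonial replicate 2 and below the 2340.3 FPKM of pachytene replicate 2.

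The transition proteins, which hold the chromatin between histones and protamines, rose as well. Tnp1 (chromosome 1, 73061649 to 73062473) had 5845 and 5645 FPKM in rST, against 105 and 63.0 FPKM in plpSC (log2 difference 6.13, adjusted p = 0.00126). Tnp2 had 5193 and 6018 FPKM in rST, against 54.4 and 36.8 FPKM in plpSC (log2 difference 6.93, adjusted p = 0.000414). The groups overlapped in none of these 4 genes, whose log2 differences lay between 6.13 and 8.03. The other rises were Tssk6, H2afb1, H1fnt, Prm3, Cdyl, Hils1 and Chd5, of which H1fnt and Hils1 are linker histones of spermatids, H2afb1 is a short H2A variant, and Chd5 is a remodeller needed for histone removal. H1fnt had 471 and 490.4 FPKM in rST, against 28.2 and 12.1 FPKM in plpSC, and H2afb1 had 426 and 458 FPKM in rST, against 10.6 and 7.78 FPKM in plpSC.

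The falls in the same list included histone variant genes. H2afx, the variant that is phosphorylated at DNA breaks and over the sex body, had 54.0 and 42.2 FPKM in rST, against 215 and 463 FPKM in plpSC (log2 difference -2.70, adjusted p = 0.0104). Hist1h2aa, a testis H2A, had 179 and 149 FPKM in rST, against 807 and 1837 FPKM in plpSC (log2 difference -2.89, adjusted p = 0.0152). Its H2B partner Hist1h2ba had 943 and 584 FPKM in rST, against 2685 and 5121 FPKM in plpSC, and with a log2 difference of -2.32 it missed the threshold (adjusted p = 0.0737). The testis linker histone Hist1h1t of pachytene cells had 89.7 and 42.5 FPKM in rST, against 144 and 145 FPKM in plpSC, and was not called (adjusted p = 0.0665). The rises also numbered 11 under each of 3 other scalings but 3 with a weight per stage fitted over 8 libraries, while under the scalings the falls numbered 4, 5 and 12 and the list median turned to -0.29 under quantile normalization and -0.31 without the 3 small RNAs. With rST replicate 1 or rST replicate 2 left out, 0 falls were called and 9 rises each time.

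Of the 48 genes of the acrosome and of fertilisation, 19 rose (39.6%, against 10.5% of all genes) and 2 fell (4.17%, against 27.8%), with a list median of 1.27, against -0.31 for all genes. Prss37, a protease-like protein needed for sperm to reach and bind the egg, had 132 and 144 FPKM in rST, against 3.85 and 3.86 FPKM in plpSC (log2 difference 4.84, adjusted p = 0.000101). Calr3, a testis calreticulin that folds sperm surface proteins, had 49.7 and 54.3 FPKM in rST, against 5.74 and 3.95 FPKM in plpSC (log2 difference 3.20, adjusted p = 0.000722). Both plpSC libraries were low for these 2 genes. Actl9, an actin-related protein of the perinuclear theca, had 180.1 and 178 FPKM in rST, against 32.5 and 15.0 FPKM in plpSC (log2 difference 2.96, adjusted p = 0.00533). Among the other rises, chosen for their roles after their values were seen, were Plcz1, the phospholipase that activates the egg, with 182 and 197 FPKM in rST, against 53.0 and 16.6 FPKM in plpSC, and Izumo1, the sperm partner in gamete fusion, with 50.8 and 53.0 FPKM in rST, against 25.3 and 7.98 FPKM in plpSC.

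Many acrosomal genes were abundant in plpSC replicate 1 too. Over the list, plpSC replicate 1 stood at a median of 67.4% and replicate 2 at 23.0% of the rST mean. The median log2 difference was accordingly 0.56 against replicate 1 and 2.01 against replicate 2. Acrv1 was higher in rST by 1.70 on the log2 scale and missed the threshold (SE 0.593, adjusted p = 0.0561). Dkkl1, an acrosomal protein, had 1007 and 1039 FPKM in rST, against 958 and 371 FPKM in plpSC (adjusted p = 0.431), and the inhibitor Spink2 had 936 and 933 FPKM in rST, against 949 and 397 FPKM in plpSC (adjusted p = 0.528). For both, plpSC replicate 1 was close to rST and replicate 2 was below it. The 2 falls were Tex101, a germ cell surface chaperone of ADAM proteins, with 40.1 and 26.7 FPKM in rST, against 144 and 275 FPKM in plpSC, and Gopc, a Golgi protein, with 4.51 and 3.49 FPKM in rST, against 8.34 and 8.97 FPKM in plpSC. The rises numbered 8, 6, 46 and 29 and the falls 1, 0, 2 and 4 without rST replicate 1, rST replicate 2, plpSC replicate 1 and plpSC replicate 2 in turn, and the rises 9 under quantile normalization and 4 with a weight per stage.

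Of the 62 tested genes of the flagellum and sperm motility, 16 rose (25.8%, against 10.5% of all genes) and 0 fell (limma, 0 also at an unadjusted p under 0.05), and the list median was 0.76. The kinase Tssk6, which acts in late spermatids, had 118 and 119 FPKM in rST, against 1.87 and 1.49 FPKM in plpSC (log2 difference 5.48, adjusted p = 6.56e-05). Spatc1 (speriolin), a centrosomal protein of germ cells, had 87.2 and 90.0 FPKM in rST, against 1.30 and 0.983 FPKM in plpSC (log2 difference 5.39, adjusted p = 6.56e-05). In both genes the plpSC libraries were low and alike. Oaz3, the testis ornithine decarboxylase antizyme, had 838 and 846 FPKM in rST, against 70.9 and 24.5 FPKM in plpSC (log2 difference 4.30, adjusted p = 0.00376).

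The tail genes Akap4 and Odf1 rose as well. Akap4, the main fibrous sheath anchor protein (X chromosome, 6644645 to 6655732), had 758 and 835 FPKM in rST, against 89.8 and 31.6 FPKM in plpSC (log2 difference 3.87, adjusted p = 0.00591). Odf1, a dense fibre protein named after its values were seen, had 1502 and 1629 FPKM in rST, against 219.8 and 70.1 FPKM in plpSC (adjusted p = 0.0116). The 2 most abundant of the 46 genes not called were Meig1 and Gstm5. Meig1, needed for the manchette of the spermatid, had 2303 and 2266 FPKM in rST, against 2130.4 and 869 FPKM in plpSC (adjusted p = 0.546), and Gstm5, a glutathione transferase of sperm, had 2998 and 2941 FPKM in rST, against 1833 and 748 FPKM in plpSC (adjusted p = 0.286). Against plpSC replicate 1 the list median was 0.21, and against replicate 2 it was 1.40. The rises numbered 10, 9, 60 and 25 and the falls 0, 0, 1 and 9 without rST replicate 1, rST replicate 2, plpSC replicate 1 and plpSC replicate 2 in turn, and the rises 6 with a weight per stage.

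Of 30 tested regulators of transcription after meiosis, 10 rose (33.3%, against 10.5% of all genes) and 3 fell (10%, against 27.8%), with a median of 0.69. Hmgb4, a testis chromatin protein of the HMG-box family (chromosome 4, 127937456 to 127938139), had 1047 and 1155 FPKM in rST, against 69.9 and 27.7 FPKM in plpSC (log2 difference 4.61, adjusted p = 0.00232). Spz1, a testis basic helix-loop-helix factor, had 1229 and 1336 FPKM in rST, against 184 and 60.5 FPKM in plpSC (log2 difference 3.59, adjusted p = 0.0109). Fhl5, the LIM protein that coactivates CREM, had 133 and 153 FPKM in rST, against 24.0 and 11.3 FPKM in plpSC (log2 difference 3.04, adjusted p = 0.00409). Kif17, the kinesin that moves this coactivator out of the nucleus, had 62.5 and 73.4 FPKM in rST, against 23.1 and 7.73 FPKM in plpSC (log2 difference 2.25, adjusted p = 0.0151). Crem itself, the cyclic AMP response factor of spermatids, had 139 and 155 FPKM in rST, against 123 and 50.3 FPKM in plpSC and was not called (log2 difference 0.89, adjusted p = 0.186). Its plpSC replicate 1 lay at 83.4% and replicate 2 at 34.2% of the rST mean. The falls included Taf7l, a germ cell TFIID subunit, with 31.6 and 28.6 FPKM in rST, against 89.9 and 166 FPKM in plpSC (log2 difference -1.98, adjusted p = 0.0134). The rises numbered 3, 2, 22 and 12 and the falls 1, 0, 6 and 6 without rST replicate 1, rST replicate 2, plpSC replicate 1 and plpSC replicate 2 in turn, and the rises 6 under quantile normalization or without the 3 small RNAs and 2 with a weight per stage.

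CREM binds the cyclic AMP response element TGACGTCA and variants of it, and E2F factors drive replication genes through sites such as TTTNGCGC. The 250 bases before the start of each gene were searched on both strands in the RefSeq promoter table (build GRCm38.p6), with the variant TGATGTCA picked after promoters had been seen. This variant was found in 67 of 441 promoters (15.2%) of genes called higher by at least 4-fold, in 2 of 238 (0.840%) of those called lower by at least 4-fold, in 242 of 9916 (2.44%) of all genes tested and in 962 of all 32851 promoters (2.93%). The full element TGACGTCA was in 2.49%, 2.94%, 2.97% and 1.55% of these sets, so neither set stood above the genes tested, and TTTNGCGC was in 0.454%, 6.30%, 2.20% and 1.13%. Promoters matched 80.3% of the first set and 83.8% of the second. By list, the variant was in 7 of 37 acrosome promoters (18.9%), 3 of 52 flagellum promoters (5.77%) and 1 of 30 nuclear condensation promoters (3.33%). Mcm5, a replication gene that fell and is not printed, had the full element beginning 99 bases before its start, besides E2F matches. The promoters below are examples, printed as the 120 bases before the start on the gene's strand, with the matches in capitals. Prm1 is printed as the largest-level riser with no match to the motifs searched. Other variants of the element, such as the tgacttca in the Prm1 sequence, were not searched for.
Tnp1, chr1:73015900-73016019, minus strand: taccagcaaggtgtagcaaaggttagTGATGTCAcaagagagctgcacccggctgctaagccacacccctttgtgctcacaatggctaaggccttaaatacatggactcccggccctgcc
Gapdhs, chr7:30743682-30743801, minus strand: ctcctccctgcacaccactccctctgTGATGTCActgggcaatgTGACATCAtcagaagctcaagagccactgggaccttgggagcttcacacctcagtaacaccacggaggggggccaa
Hmgb4, chr4:128260896-128261015, minus strand: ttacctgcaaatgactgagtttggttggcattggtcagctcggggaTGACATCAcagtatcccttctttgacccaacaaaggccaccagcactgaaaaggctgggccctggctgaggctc
Akap4, chrX:7067395-7067514, plus strand: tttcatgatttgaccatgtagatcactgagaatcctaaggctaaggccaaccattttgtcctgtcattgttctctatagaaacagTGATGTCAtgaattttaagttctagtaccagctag
Prm1, chr16:10796824-10796943, minus strand: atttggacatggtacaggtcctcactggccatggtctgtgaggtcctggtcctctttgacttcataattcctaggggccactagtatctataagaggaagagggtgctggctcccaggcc
Mcm6, chr1:128359706-128359825, minus strand: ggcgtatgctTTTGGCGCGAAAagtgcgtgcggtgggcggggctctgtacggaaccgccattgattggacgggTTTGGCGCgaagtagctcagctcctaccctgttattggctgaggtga
The Tnp1 match began 94 bases before the start, those of Gapdhs 94 and 76, that of Hmgb4 74 and that of Akap4 35. Mcm6, a helicase subunit that fell, had 3 E2F matches, of which 2 overlap. A match describes letters in this window, not binding.

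Spermatids burn sugar and ketones with germline forms of enzymes that most body cells lack. Of 30 tested genes of the germline list, 8 rose (26.7%, against 10.5% of all genes) and 2 fell (6.67%, against 27.8%), with a median of 0.61. Some genes of this list, among them Spert and the falling Glud1, are not germline enzyme forms. Of 23 tested genes of the somatic list 1 rose and 14 fell (median -1.41). Oxct2b, a testis ketone body transferase encoded by an intronless gene, had 151 and 166 FPKM in rST, against 0.778 and 1.01 FPKM in plpSC (log2 difference 6.40, adjusted p = 5.69e-05). Its near relative Oxct2a had 101 and 102 FPKM in rST, against 0.616 and 0.583 FPKM in plpSC, and reads of these 2 similar genes may be split between them. Gapdhs, the sperm form of glyceraldehyde 3-phosphate dehydrogenase (chromosome 7, 31514906 to 31524375), had 130.5 and 152 FPKM in rST, against 17.1 and 8.36 FPKM in plpSC (log2 difference 3.45, adjusted p = 0.00189). Spert, a spermatid-associated protein, had 257 and 278 FPKM in rST, against 12.2 and 5.15 FPKM in plpSC (log2 difference 4.90, adjusted p = 0.000507).

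Of the somatic list 60.9% fell, against 27.8% of all genes. Gapdh, named as the partner of Gapdhs after its values were seen, had 21.2 and 16.2 FPKM in rST, against 40.0 and 82.0 FPKM in plpSC (adjusted p = 0.0234). Gapdhs thus made up 86.0% and 90.4% of the summed FPKM of the pair in rST, against 29.9% and 9.26% in plpSC. Ldhb, the heart-type lactate dehydrogenase, had 6.13 and 4.13 FPKM in rST, against 27.8 and 43.0 FPKM in plpSC (log2 difference -2.56, adjusted p = 0.00364). Gpi1, glucose phosphate isomerase, was the single gene of the somatic list that rose, with 70.8 and 76.9 FPKM in rST, against 10.1 and 13.2 FPKM in plpSC (log2 difference 2.58, adjusted p = 0.00221).

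In most of the 12 pairs plotted, those of Pgk2 and Ldhc among them, the germline form made up most of the sum in the plpSC libraries too. The exceptions were Gapdhs, Aldoart1, Oxct2a and, in plpSC replicate 2, Cox6b2. The part of later germ cell transcripts in these plpSC shares was not tested. In the pairs of Ldhc, Aldoart1 and Oxct2a the somatic form was not called. The germline form Slc25a31 itself fell, with 16.1 and 14.2 FPKM in rST, against 31.5 and 38.4 FPKM in plpSC (limma, adjusted p = 0.0231). Pgk2 made up 99.3% and 99.4% of its pair with Pgk1 in rST, against 97.6% and 89.3% in plpSC, and Ldhc 80.7% and 80.0% of its pair with Ldha in rST, against 78.7% and 78.3% in plpSC. Pgk2 itself, a retrogene form of phosphoglycerate kinase, had 496 and 524 FPKM in rST, against 279 and 111 FPKM in plpSC and was not called (log2 difference 1.52, adjusted p = 0.0743). Of the 12 pairs plotted, Gapdhs and Oxct2a differed most in share, and Oxct2a made up 87.4% and 87.3% of its pair with Oxct1 in rST, against 4.55% and 4.08% in plpSC. The germline rises numbered 6, 4, 24 and 11 and the somatic falls 5, 1, 16 and 16 without rST replicate 1, rST replicate 2, plpSC replicate 1 and plpSC replicate 2 in turn, with germline falls of 0, 0, 2 and 8 and somatic rises of 1, 1, 6 and 4. The germline median against plpSC replicate 1 was -0.01 and against replicate 2 1.24. Quantile normalization gave 5 germline rises and 4 somatic falls, and a weight per stage gave 5 and 11.

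**Figure D3:**
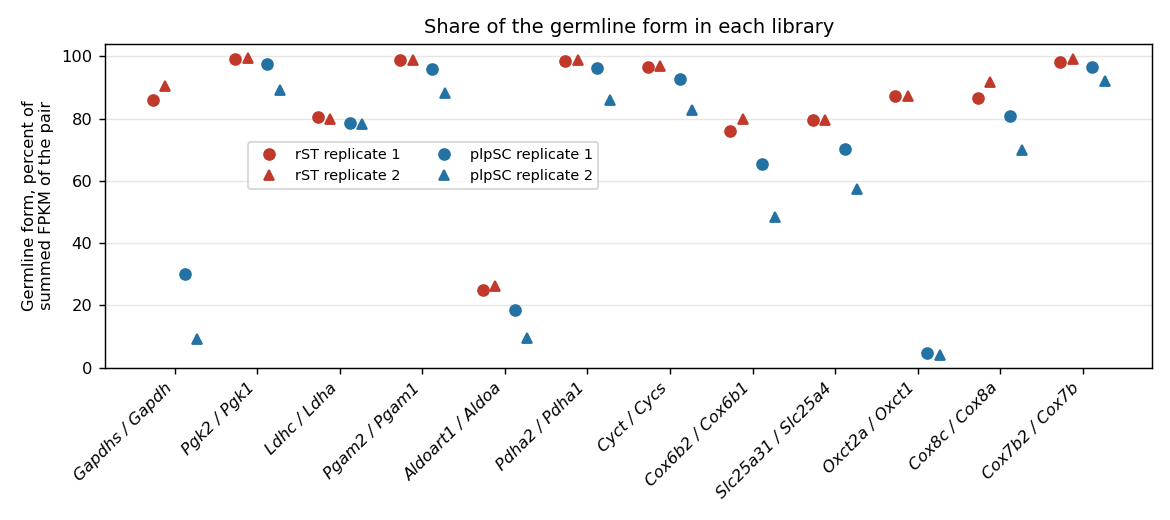
Germline form as percent of the summed FPKM of each germline and somatic pair, with rST in red left of plpSC in blue, circles for replicate 1 and triangles for replicate 2. Gapdhs and Oxct2a are at 86.0% or more in both rST libraries and at 29.9% or less in both plpSC libraries, while Ldhc stays between 78.3% and 80.7% in all 4.

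Protein turnover genes, which spermatids need to remove histones and cytoplasm, moved both ways, with 7 rises (17.5%, against 10.5% of all genes) and 11 falls (27.5%, near the 27.8% of all genes) among 40 (median -0.00). Rnf133, a testis ubiquitin ligase, had 131 and 135 FPKM in rST, against 7.96 and 3.76 FPKM in plpSC (log2 difference 4.36, adjusted p = 0.000492). Its paralogue Rnf148 had 64.6 and 63.7 FPKM in rST, against 5.41 and 2.63 FPKM in plpSC (log2 difference 3.76, adjusted p = 0.000676). Klhl10, a spermatid adaptor of cullin 3 ligases, had 223 and 244 FPKM in rST, against 77.7 and 23.1 FPKM in plpSC (log2 difference 2.43, adjusted p = 0.0188). These 3 genes are testis forms, and the falls included the proteasome activator subunit gene Psme1, with 8.29 and 5.94 FPKM in rST, against 20.7 and 32.6 FPKM in plpSC (adjusted p = 0.0121). The median was 0.37 under median centring. The rises numbered 2, 2, 17 and 9 and the falls 1, 0, 15 and 15 without rST replicate 1, rST replicate 2, plpSC replicate 1 and plpSC replicate 2 in turn, and quantile normalization gave 5 and 1.

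Of 42 genes for storing and translating messages 12 fell and 1 rose (28.6% lower, near the 27.8% of all genes). Dazl, a translational activator of germ cells, had 20.01 and 16.4 FPKM in rST, against 79.3 and 179 FPKM in plpSC (log2 difference -2.65, adjusted p = 0.00823). Cpeb1, which controls polyadenylation in early meiotic cells, had 0.832 and 0.593 FPKM in rST, against 3.21 and 7.88 FPKM in plpSC (adjusted p = 0.0141). Igf2bp3 was the single rise, with 29.7 and 28.4 FPKM in rST, against 15.7 and 8.50 FPKM in plpSC (adjusted p = 0.0288). In the piRNA pathway, which silences transposons, 2 genes rose (7.14%, against 10.5% of all genes) and 10 of 28 fell (35.7%, against 27.8%), with a median of -0.62. Tex19.1, a transposon control gene, had 4.03 and 3.03 FPKM in rST, against 13.6 and 25.1 FPKM in plpSC (adjusted p = 0.00844), and the helicase Mov10l1 had 10.01 and 7.41 FPKM in rST, against 23.3 and 37.3 FPKM in plpSC (adjusted p = 0.0137). The pachytene PIWI protein gene Piwil1 had 19.6 and 14.9 FPKM in rST, against 29.7 and 25.1 FPKM in plpSC and was not called (log2 difference -0.64, adjusted p = 0.128). Translational falls numbered 3, 0, 19 and 18 and piRNA falls 2, 0, 14 and 19 without rST replicate 1, rST replicate 2, plpSC replicate 1 and plpSC replicate 2 in turn, with translational rises of 0, 0, 18 and 6 and piRNA rises of 1, 0, 8 and 2. Quantile normalization gave 2 falls and 0 rises in each list.

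Genes of meiotic entry and spermatogonial differentiation fell: 21 of 27 tested were lower in rST (77.8%, against 27.8% of all genes), with a median of -1.37. Higher in rST were 0 (limma, 0 also at an unadjusted p under 0.05), against 10.5% of all genes. Stra8 was lower in rST by a log2 difference of -2.83 (SE 0.419, adjusted p = 0.00576), with 518% of the rST mean in plpSC replicate 1 and 1184% in replicate 2. Rhox13, an X-linked homeobox gene of germ cells entering meiosis, had 1.44 and 1.77 FPKM in rST, against 9.98 and 19.6 FPKM in plpSC (log2 difference -2.53, adjusted p = 0.00466). Kit, the receptor of differentiating spermatogonia, was named after its values were seen and had 1.51 and 1.23 FPKM in rST, against 3.33 and 8.34 FPKM in plpSC (adjusted p = 0.0270). The fall was larger against plpSC replicate 2, with a list median of -1.67, against -0.90 for replicate 1. Ddx4, the germ cell helicase kept through spermatogenesis, had 178 and 191 FPKM in rST, against 231 and 151 FPKM in plpSC (adjusted p = 0.976). The falls numbered 7, 2, 22 and 23 and the rises 0, 0, 3 and 0 without rST replicate 1, rST replicate 2, plpSC replicate 1 and plpSC replicate 2 in turn, with falls of 9 under quantile normalization and 11 under median centring.

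Of 46 genes of replication licensing and DNA synthesis 28 fell (60.9%, against 27.8% of all genes), with a median of -1.16. In this list 0 rose (limma, 0 also at an unadjusted p under 0.05), against 10.5% of all genes. Mcm2 was lower in rST by a log2 difference of -2.19 (SE 0.341, adjusted p = 0.00698). Mcm3 had 4.65 and 3.14 FPKM in rST, against 19.0 and 36.4 FPKM in plpSC (log2 difference -2.50, adjusted p = 0.00605). Mcm5 had 4.78 and 4.38 FPKM in rST, against 19.8 and 36.3 FPKM in plpSC (adjusted p = 0.00600), and Mcm6 had 6.95 and 5.83 FPKM in rST, against 23.9 and 41.3 FPKM in plpSC (adjusted p = 0.00743). These helicase subunits shared the same order, with plpSC replicate 2 highest, replicate 1 next and both rST libraries lowest. Mcm7, named as the exception after its values were seen, had 74.2 and 79.4 FPKM in rST, against 84.2 and 64.8 FPKM in plpSC (adjusted p = 0.914). Rpa1, the single-strand binding subunit used in repair and recombination too, had 116 and 107 FPKM in rST, against 153 and 78.2 FPKM in plpSC, and its sign against the 2 plpSC libraries differed. The falls numbered 12, 2, 37 and 38 and the rises 0, 0, 4 and 1 without rST replicate 1, rST replicate 2, plpSC replicate 1 and plpSC replicate 2 in turn, with falls of 11 under quantile normalization.

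Cell division genes moved less, with 12 of 42 lower (28.6%, near the 27.8% of all genes) and 0 higher (limma, 1 at an unadjusted p under 0.05). Ccnd1, a G1 cyclin, had 1.47 and 0.879 FPKM in rST, against 5.35 and 8.15 FPKM in plpSC (log2 difference -1.82, adjusted p = 0.00878). Ccna1, the meiotic A-type cyclin, had 157 and 166 FPKM in rST, against 177 and 66.7 FPKM in plpSC and was not called (adjusted p = 0.423). The falls numbered 4, 0, 19 and 30 and the rises 0, 0, 13 and 1 without rST replicate 1, rST replicate 2, plpSC replicate 1 and plpSC replicate 2 in turn, with falls of 5 under quantile normalization.

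Of 45 tested genes of meiotic recombination and synapsis 27 fell (60.0%, against 27.8% of all genes), with a median of -1.05. In this list 0 rose (limma, 0 also at an unadjusted p under 0.05), against 10.5% of all genes. Dmc1, the strand exchange protein of meiosis (chromosome 15, 79391930 to 79435514), had 2.58 and 1.97 FPKM in rST, against 9.92 and 30.2 FPKM in plpSC (log2 difference -2.50, adjusted p = 0.0121). Prdm9, which marks the sites of recombination (chromosome 17, 15680043 to 15700287), had 1.18 and 1.09 FPKM in rST, against 4.75 and 14.2 FPKM in plpSC (log2 difference -2.13, adjusted p = 0.0145). Rad21l, a meiotic cohesin, had 1.06 and 0.737 FPKM in rST, against 6.34 and 18.5 FPKM in plpSC (log2 difference -2.66, adjusted p = 0.00910). In all 3 genes plpSC replicate 2 stood at least 2-fold above replicate 1. Sycp3, of the axial element, had 85.4 and 72.2 FPKM in rST, against 176 and 238 FPKM in plpSC (log2 difference -1.37, adjusted p = 0.0330). Spo11, the enzyme that makes the breaks, had 12.6 and 9.22 FPKM in rST, against 12.7 and 9.47 FPKM in plpSC, so the libraries overlapped (adjusted p = 0.962). Syce1, of the central element of the synaptonemal complex, had 402 and 430.5 FPKM in rST, against 461 and 215 FPKM in plpSC (adjusted p = 0.611). The falls numbered 8, 4, 38 and 34 and the rises 0, 0, 5 and 1 without rST replicate 1, rST replicate 2, plpSC replicate 1 and plpSC replicate 2 in turn, with falls of 8 under quantile normalization and 15 under median centring.

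Genes that mark pachytene spermatocytes, the stage between the 2 compared, showed no common direction. Of 23 tested 3 fell (13.0%, against 27.8% of all genes) and 0 rose (limma, 1 at an unadjusted p under 0.05), and the median was 0.27. It was -0.29 against plpSC replicate 1 and 0.74 against replicate 2, and -0.25 under quantile normalization. Without plpSC replicate 1 there were 13 rises and 6 falls, and without plpSC replicate 2 there were 2 rises and 13 falls, while without either rST replicate none was called.

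**Figure D4:**
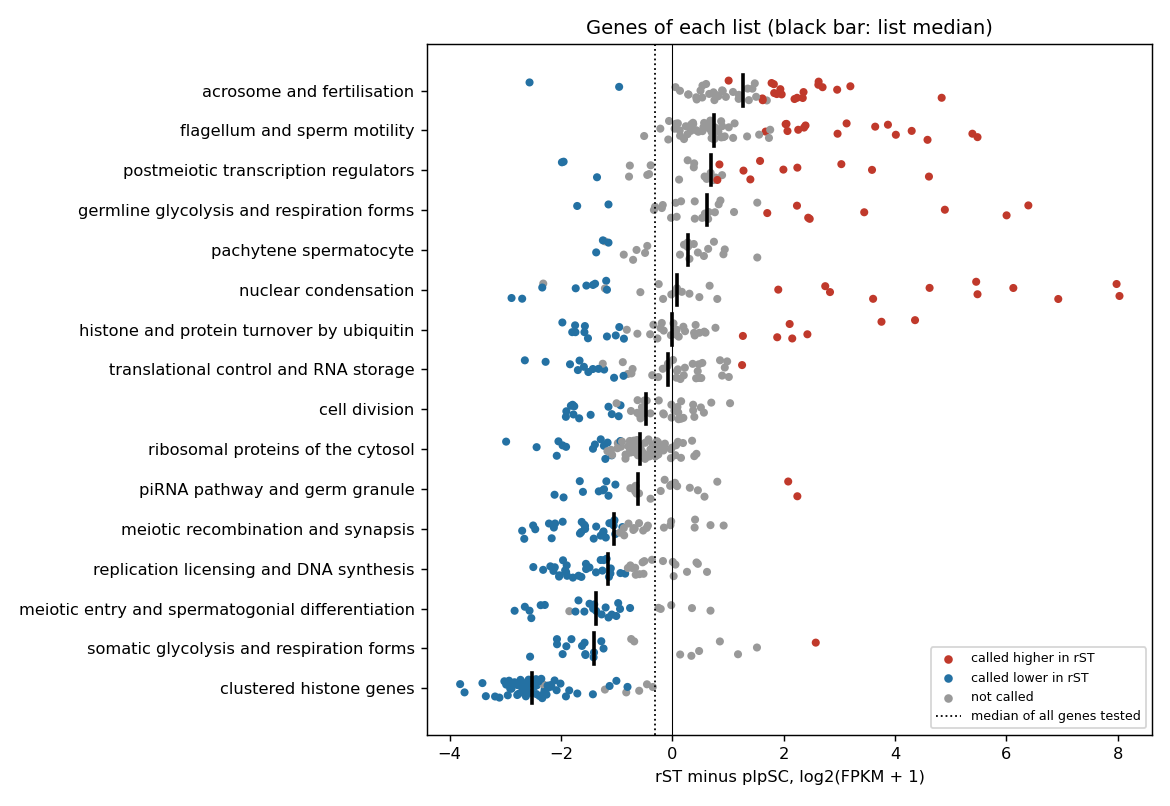
Log2(FPKM + 1) difference of rST minus plpSC for each tested gene of 16 lists, red where called higher in rST, blue where called lower and grey where not called, with black bars at list medians and a dotted line at the median of all genes. List medians run between -2.53 for clustered histone genes and 1.27 for the acrosome.

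Among the autosomes and the X chromosome, the X had the highest share of falls. Of its 536 tested genes 274 (51.1%) were called lower in rST and 65 (12.1%) higher, against 27.8% and 10.5% of all genes, with a median of -0.94. The median was -0.70 against plpSC replicate 1 and -1.24 against replicate 2, and it stayed below the median of all genes under all 3 other scalings, at -0.58 under quantile normalization, -0.56 under median centring and -1.21 without the 3 small RNAs. The summed FPKM of the X-linked genes was nevertheless 8024 and 8754 in rST, against 7095 and 7237 in plpSC, and 1561 and 2995 in the pachytene libraries, where the X chromosome is silenced. On FPKM as deposited the summed X-linked level was thus not lower in rST, although more X-linked genes were called lower than higher. The FPKM of all genes summed to 489171 and 500516 in rST, against 449735 and 390286 in plpSC. The X-linked sum was not compared under the other scalings.

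Of single X-linked genes, Rpl39, a ribosomal protein gene, had 5.71 and 4.64 FPKM in rST, against 31.0 and 73.4 FPKM in plpSC (log2 difference -2.99, adjusted p = 0.00486). Tex11, a meiotic crossover gene, had 4.86 and 4.44 FPKM in rST, against 19.8 and 45.6 FPKM in plpSC (log2 difference -2.46, adjusted p = 0.00805). Akap4 is described above, and Cypt1, a cysteine-rich perinuclear theca gene, had 84.5 and 87.9 FPKM in rST, against 25.4 and 10.2 FPKM in plpSC (log2 difference 2.34, adjusted p = 0.0117). Among multicopy and sex-linked spermatid genes 7 of 24 tested rose (29.2%, against 10.5% of all genes) and 9 fell (37.5%, against 27.8%). Sly, Ssty1 and Ssty2 of the Y long arm were listed at 0 in all 4 libraries. On the Y, Rbmy1a1, a germ cell RNA-binding protein of spermatogonia and early spermatocytes, had 9.29 and 7.43 FPKM in rST, against 42.8 and 84.9 FPKM in plpSC (log2 difference -2.72, adjusted p = 0.00489). Several of these genes have near-identical copies, so their values are uncertain. The X-linked falls numbered 91, 14, 324 and 319 and the rises 39, 29, 161 and 84 without rST replicate 1, rST replicate 2, plpSC replicate 1 and plpSC replicate 2 in turn, and quantile normalization gave 109 and 50 and a weight per stage 235 and 39.

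**Figure D5:**
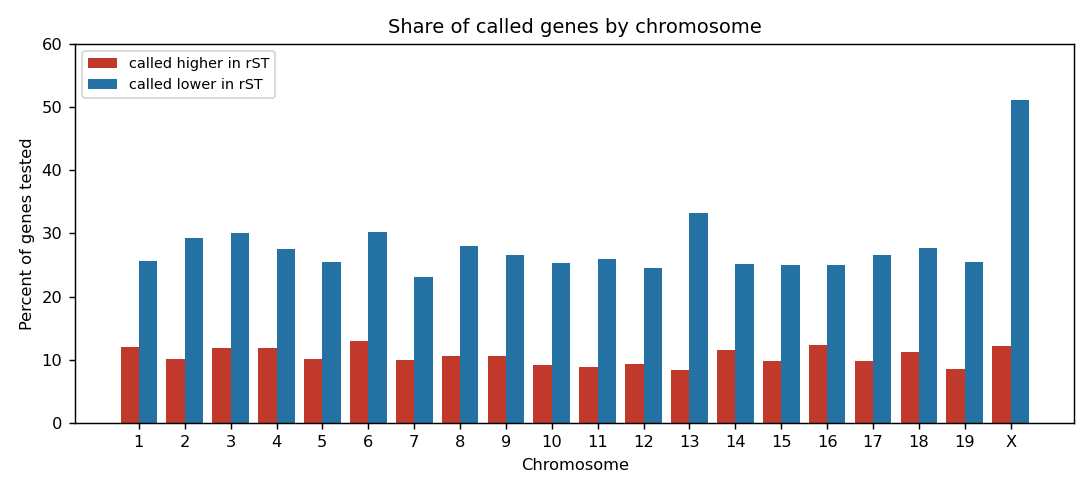
Share of tested genes called higher (red, left) and lower (blue, right) in rST on each autosome and on the X chromosome, in percent. On the X chromosome 51.1% were called lower, and the highest autosomal share was 33.2% on chromosome 13.

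Of 13 tested genes of DNA methylation 6 fell (46.2%, against 27.8% of all genes) and 2 rose, Dnmt3l and Mbd2 (adjusted p = 0.0476 and 0.0475), while 0 rose with the replicate block, without the 3 small RNAs or without either rST replicate, and quantile normalization gave 1 rise and 1 fall. Dnmt1, the maintenance methyltransferase, had 9.09 and 6.47 FPKM in rST, against 26.2 and 43.0 FPKM in plpSC (log2 difference -1.99, adjusted p = 0.00965), and Hells, a chromatin remodeller needed for DNA methylation, had 11.6 and 9.25 FPKM in rST, against 37.9 and 81.3 FPKM in plpSC (adjusted p = 0.00998). Of 78 cytosolic ribosomal protein genes 14 fell and 0 rose (limma, 0 also at an unadjusted p under 0.05), 17.9% lower, against 27.8% of all genes, with 43 falls without the 3 small RNAs and 10 under quantile normalization. Their median was nevertheless -0.59, against -0.31 for all genes. Both rST libraries lay below both plpSC libraries at 66 of the 78 and above them at 4, against 52.4% and 24.2% of all genes. The methylation falls numbered 2, 0, 8 and 8 and the ribosomal falls 2, 1, 57 and 58, with ribosomal rises of 0, 0, 4 and 0, without rST replicate 1, rST replicate 2, plpSC replicate 1 and plpSC replicate 2 in turn.

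Among the largest changes by the naming rule were several that rested on almost no reads. Mir683-1 was listed at 2340 and 3878 FPKM in rST and at 0 in plpSC, on 1 effective fragment in each rST library. Mir680-2 and Mir669j rested on 1 fragment in each plpSC library and 0 in rST. Scarna3a, Snora28 and Snora43 rested on at most 5 fragments in a library. These transcripts are short, so 1 fragment gives a high FPKM, and no change is read from them.

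Other genes among the largest changes had far more reads behind them. 1700027A15Rik, a clone gene that starts on chromosome 1 just beyond Tnp1, had 3392 and 3502 FPKM in rST, against 15.0 and 15.8 FPKM in plpSC (log2 difference 7.71, adjusted p = 9.83e-05). The 2 loci adjoin, and without strand the reads of overlapping neighbours could not be told apart. Fscn3, a testis fascin that bundles actin, had 129 and 133 FPKM in rST, against 0.651 and 0.584 FPKM in plpSC (log2 difference 6.35, adjusted p = 5.69e-05). Klk1b8, a glandular kallikrein with close paralogues, had 139.7 and 152 FPKM in rST, against 0.549 and 0.997 FPKM in plpSC (adjusted p = 5.69e-05). Among the falls the beta globin entry Beta-s had 18.1 and 4.46 FPKM in rST, against 209 and 391.7 FPKM in plpSC (log2 difference -4.81, adjusted p = 0.00312), and globin copies share reads. Wfdc1, a secreted protease inhibitor, had 1.36 and 0.538 FPKM in rST, against 15.1 and 30.1 FPKM in plpSC (log2 difference -3.55, adjusted p = 0.00158).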

How the data were processed

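Per the file headers, the authors deposited 1 FPKM value for each gene, with its confidence limits. The tools in the submitters' processing notes are BWA, Cuffdiff and TopHat2 2.0.6, and the build is mm9; the role of each tool and the strand are not given in the sources used here. Each file held 23021 entries, entries sharing a symbol were summed, and 25 of 22552 symbols appear as calendar dates (21 tested). With the bounds read as 2 SD, effective fragments were recovered as (FPKM/SD) squared, and 60.2% to 65.0% of values came within 0.05 of a whole number, so depths are estimates. Circular RNA lists were not used here.

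Only the 4 libraries compared entered the limma fit (version 3.58.1, R 4.3.3) of log2(FPKM + 1), a pseudocount of 1, eBayes with trend, 2 residual degrees of freedom, two-sided, adjusted over 12407 genes and called at an adjusted p under 0.05. Differences are on the log2(FPKM + 1) scale, which understates changes of low genes. The fit was tested on simulated data with equal spread in both groups. The real groups differ in spread, so this test does not cover that difference. Tables and plots were made in Python 3.11.15 (matplotlib 3.10.9, pandas 2.3.3, numpy 2.4.6, scipy 1.17.1). Alternatives changed the pseudocount, filter, scaling, spread, replicate block and the libraries used.

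The members and gene lists were chosen with earlier results of these data known. Genes were named by rule: 17 fixed genes, the 10 largest called rises and falls whose higher group averaged 20 FPKM or more, per list up to 4 called members in each direction and 2 uncalled ones of highest level, and the 10 most abundant genes per stage. Other names are marked or stand for a role in a list, and were chosen after their values were seen.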

Additional observations from a re-analysis of the deposited data

How the results depend on the processing

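With a pseudocount of 0.1, 1113 genes were lower by at least 4-fold and the X-linked median was -1.36. With a pseudocount of 5, 325 genes were higher and 68 lower by at least 4-fold, the all-gene median was -0.18 and the X-linked median -0.38. Without a filter, 594 genes were higher and 213 lower, 363 and 111 by at least 4-fold, with medians of -0.081 (all) and -0.34 (X-linked). At FPKM of at least 5, 1771 were lower, with medians of -0.071 and -0.24. Quantile normalization gave 683 lower, 150 by at least 4-fold, and an all-gene median of -0.13. Median centring gave 1598 lower, 97 by at least 4-fold, and reversed the all-gene median to 0.072. Without the 3 small RNAs, 686 were lower by at least 4-fold and the all-gene median was -0.66. A weight per stage gave 809 higher. The cause of these moves was not tested.

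Leaving out each library in turn gave 458 to 4116 higher, 75 to 5774 lower, 381 to 860 higher by at least 4-fold and 70 to 854 lower by at least 4-fold, the lone library being assumed to vary like the other group. Values of uncalled named genes changed sign in 50 of 890 cases, and past the threshold in Rpa1 (0.50 without plpSC replicate 1, -0.46 without replicate 2), Slxl1 (0.96 and -0.32) and Ddx4 (0.28 and -0.32). Of 121 called named genes, 67 lost the call without rST replicate 2 and 65 without a filter.

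Between rST and plpSC the deviations of equal replicate numbers had a correlation of -0.34. With 2 libraries a group this value cannot decide whether samples were paired. The replicate block gave 1191 higher and 2508 lower, of which 1108 and 2458 were shared calls, and the crossed pairing, added after seeing the data, gave 1708 and 4239. The rescaling without the 3 small RNAs works on FPKM sums, in which short RNAs weigh more than in fragments. Depth limits the shortest RNAs, which rest on a few fragments.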

Other observations

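Genes of the histone clusters, matched by a symbol pattern chosen after values were seen, were the list with the lowest median of those plotted. Of 65 tested, 59 were lower in rST (90.8%, against 27.8% of all genes) and 0 higher (limma, 0 also at an unadjusted p under 0.05). The median log2 difference was -2.53, against -0.31 for all genes. The summed level of all 68 such genes in the files, tested or not, was 3727 and 2606 FPKM in rST, against 12628 and 25028 FPKM in plpSC. Hist1h2bn had 38.5 and 33.0 FPKM in rST, against 347 and 762 FPKM in plpSC (log2 difference -3.81, adjusted p = 0.00319), and Hist1h2bb had 51.7 and 4.75 FPKM in rST, against 105 and 505 FPKM in plpSC, the rST libraries being far apart. These messages peak in S phase and mostly lack a poly(A) tail, and copies of a histone family are near identical, so single values are uncertain. The falls numbered 35, 13, 63 and 64 without rST replicate 1, rST replicate 2, plpSC replicate 1 and plpSC replicate 2 in turn.

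Genes known only by RIKEN clone names rose more often than they fell: 292 of 1066 tested (27.4%) were higher in rST and 136 (12.8%) lower, against 10.5% and 27.8% of all genes. The summed level of all 1534 such genes in the files, tested or not, was 59175 and 62789 FPKM in rST, against 36129 and 17885 FPKM in plpSC. Without rST replicate 1, rST replicate 2, plpSC replicate 1 and plpSC replicate 2 in turn, the rises numbered 160, 142, 645 and 386 and the falls 17, 2, 247 and 267. Quantile normalization gave 232 rises and 28 falls, a weight per stage 175 and 102, and the rescaling without the 3 small RNAs 240 and 163.

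Of 11 tested macrophage markers 1 was called higher in rST (9.09%, near the 10.5% of all genes) and 0 lower (limma, 0 also at an unadjusted p under 0.05). The single call was Aif1, with 422 and 447 FPKM in rST, against 69.7 and 24.8 FPKM in plpSC (log2 difference 3.35, adjusted p = 0.00761), a gene that spermatids are also known to express. The macrophage genes Lyz2 and C1qa, with 27.1 and 21.9 and 11.7 and 8.67 FPKM in rST, against 15.5 and 23.9 and 7.30 and 11.5 FPKM in plpSC, were not called.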
